A study of Mus musculus with 12 samples.

Results

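The genes described here were chosen as markers of newly formed oligodendrocytes. These cells have just left the precursor state and are about to build myelin. The markers are 10 of the 21937 genes in the deposited table: Gpr17, Bmp4, Enpp6, Neu4, Rras2, Rassf10, Fyn, Itpr2, Tmem163 and Bcas1. The choice was by name and with earlier results of these data known, so counts of these genes beside all genes are descriptions. All 10 reached the minimum level for testing, with 14987 genes in all. RNA came from the brains of male wild type c57Bl6/N mice, from a light membrane fraction in which myelin is enriched. The ages were postnatal day 18 (P18), P75, 6 months and 24 months, with 3 samples each and no genetic change or treatment in any group. The labels number the samples of an age without saying whether each came from a separate animal, so p-values reflect only how far these samples spread, which may be technical. Each sample held 20299052 to 27214385 reads in genes. Values are normalised read counts, which the authors had divided by a size factor per sample.

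Oligodendrocyte precursors that stop dividing pass through a committed, premyelinating stage before they wrap axons. At that stage the cells express genes that are low in precursors and mostly low again in mature, myelinating cells. Such genes serve as a readout of ongoing oligodendrocyte production, but whether each gene described here does so in this fraction was not tested. Bcas1 had means of 46351 normalised counts at P18 and 137230.2 at 24 months, and the cell stage its RNA came from was not tested. The other genes had lower means at 24 months than at P18. GPR17 is a receptor that restrains final maturation, FYN is a kinase that links axonal contact to myelin assembly, and BCAS1 protein marks oligodendrocytes at the onset of myelination. The fraction held RNA of oligodendrocytes at every age: Mbp, which encodes myelin basic protein, took 4.76% to 20.8% of all counts in single samples. It also held RNA of other cells. Fewer cells of a type, less RNA per cell and less of that RNA in the fraction cannot be told apart in such bulk samples.

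The start regions of 3 members that fell together between P18 and P75 are shown as examples of the sequence in front of these genes, each the 250 bases before the RefSeq start (GRCm38.p6), 5′ to 3′ on the gene's strand. These windows hold no annotated exon. Capitals mark a SOX motif, ACAAAG or ACAATG on either strand.
Enpp6 (chr8:46986637-46986886, plus strand): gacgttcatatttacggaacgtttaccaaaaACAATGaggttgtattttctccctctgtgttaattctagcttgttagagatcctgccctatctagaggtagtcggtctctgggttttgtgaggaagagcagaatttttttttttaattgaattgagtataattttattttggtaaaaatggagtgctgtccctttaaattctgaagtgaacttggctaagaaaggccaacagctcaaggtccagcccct
Bmp4 (chr14:46390670-46390919, minus strand): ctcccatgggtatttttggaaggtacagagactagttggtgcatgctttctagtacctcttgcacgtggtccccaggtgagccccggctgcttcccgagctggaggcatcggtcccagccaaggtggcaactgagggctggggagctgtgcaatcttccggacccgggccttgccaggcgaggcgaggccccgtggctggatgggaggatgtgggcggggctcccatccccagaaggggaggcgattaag
Rras2 (chr7:114117782-114118031, minus strand): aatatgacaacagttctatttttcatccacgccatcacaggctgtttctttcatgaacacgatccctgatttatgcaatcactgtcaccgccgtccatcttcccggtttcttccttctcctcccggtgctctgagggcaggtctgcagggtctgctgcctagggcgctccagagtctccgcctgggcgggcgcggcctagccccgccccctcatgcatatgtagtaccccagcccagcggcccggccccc
The Enpp6 window was rich in A and T, with 38.4% G and C, against 63.2% for Bmp4 and 59.6% for Rras2. Windows were at hand for 7 of the 10 members, and those of Gpr17, Rassf10 and Bcas1 were not used here. A SOX motif stood in 1 of the 7 (14.3%), the Enpp6 window, and in 25.2% of 32851 windows of the same length over all genes. An E-box, searched as CAGATG or CAGCTG, stood in 0 of the 7 and in 25.5% of all windows. A TCF/LEF motif, ATCAAAG, stood in 1 of the 7 (Fyn) and in 3.21% of all windows. Both strands were read, no window held more than 1 kind of motif among the 7, and these matches describe letters, not bound sites.

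Between P18 and P75, from active myelination to the young adult, 9 of the 10 genes fell and Bcas1 rose. None of the 10 had samples that overlapped between these 2 ages. Among all genes tested, 40.4% changed, 21.7% upward and 18.7% downward, and 47.1% did not overlap, 24.7% lying higher at P75 and 22.4% lower. The median of the 10 differences was -1.05 on the log2 scale, beside 0.017 over all genes. The falls ranged from 1.37-fold for Itpr2 and Tmem163 to 4.93-fold for Rassf10 and 4.96-fold for Gpr17, as ratios of the age means. In the order of all 14987 differences, Gpr17 stood at place 13 and Rassf10 at place 14 counted from the strongest decrease. At some age all 10 genes differed (limma F test, adjusted p from 9.37e-10 for Rras2 to 0.0147 for Itpr2), as did 77.4% of all genes. Comparisons that follow each other share the samples of the age between them, and both comparisons with 24 months share that age's samples.

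**Figure D1:**
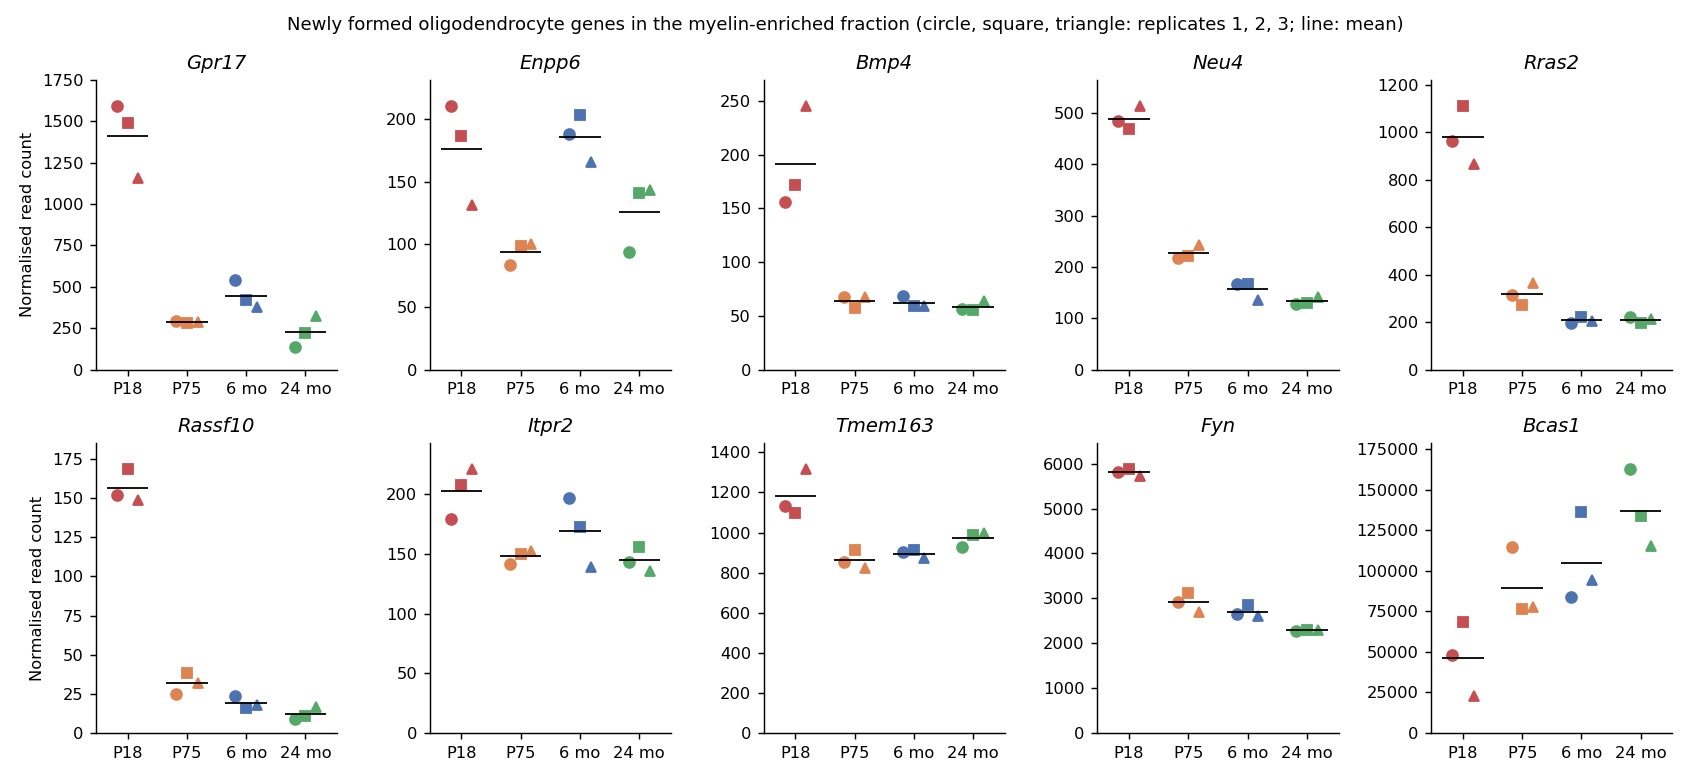
Normalised read count (vertical axis, linear, from 0) of each of the 10 genes in the 12 samples by age (horizontal axis); each symbol is a sample and each line the mean of 3. The P18 samples lie above the P75 samples in 9 panels and below them in the Bcas1 panel, where the means climb from 46351 at P18 to 137230.2 at 24 months.

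Gpr17, the receptor, stood at 1592, 1490.3 and 1160.1 normalised counts in P18 replicates 1, 2 and 3 and at 292, 279 and 285 at P75. It then stood at 542, 418 and 378 at 6 months and at 136, 221 and 321 at 24 months. The P18 samples were far above the rest, the 6-month samples above those of P75, and the 24-month samples overlapped with P75. The difference between P75 and P18 was -2.29 ± 0.22 on the log2 scale (limma adjusted p = 1.58e-06), where here and below ± is the SE of a difference between ages of n = 3 each. Gpr17 rose by 0.63 ± 0.22 from P75 to 6 months (limma adjusted p = 0.0248) and fell again by 24 months, with a difference of -1.05 ± 0.22 (limma adjusted p = 0.00537). The rise did not pass without P75 replicate 2 (0.61, adjusted p = 0.0627), P75 replicate 3 (0.63, adjusted p = 0.0569) or 6-month replicate 1 (0.48, adjusted p = 0.123), and adjusted p ran from 0.000493 to 0.123 over the alternatives. At 24 months the samples spread with a coefficient of variation of 41.1%, where counting error alone gives 6.60%, and the difference from P75 was -0.42 ± 0.22 (limma adjusted p = 0.127). Without 24-month replicate 3, the highest of that age, it was -0.72 (adjusted p = 0.00802). Gpr17 and Lims2 are annotated on opposite strands and share 188 of Gpr17's 5195 exonic bases, and the strand setting of the counting is not given in the sources used here. Lims2, an adaptor at integrin adhesions, fell from 796 ± 136 to 306 ± 19.9 normalised counts (SD) between P18 and P75, as Gpr17 did, and fell further to 189 ± 39.0 at 6 months, where Gpr17 rose.

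Bmp4 encodes a secreted ligand that inhibits oligodendrocyte maturation and is made by the newly formed cells themselves. It stood at 156, 172 and 245 normalised counts at P18, and at 67.1, 57.5 and 67.4 at P75. The 6-month samples held 68.2, 59.5 and 59.4, and those of 24 months 56.5, 55.1 and 63.9. After P18 the ages overlapped with each other. The difference between P75 and P18 was -1.54 ± 0.17 (limma adjusted p = 5.61e-06), and none passed later: -0.037 at 6 months against P75 (95% interval -0.40 to 0.32) and -0.091 at 24 against 6 months (-0.45 to 0.27). From P75 on the samples of an age varied by 8.04% to 8.85%, less than the 11.9% to 13% that counting error alone gives, so differences between samples of an age were not detectable at this depth. Gm15217 on the opposite strand shares 89 of Bmp4's 2248 exonic bases.

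Most genes around Bmp4 in its pathway did not fall with it. Of 26 tested ligands, receptors, SMAD transducers, targets and antagonists, 10 rose, 2 fell and 14 did not pass between P18 and P75, with a median of 0.36, beside 21.7% of all genes that rose and 18.7% that fell. The 2 that fell were the target genes Id1 and Id3, transcriptional inhibitors switched on by BMP signals. Id1 went from 455 ± 32.1 to 329 ± 34.1 normalised counts (SD, -0.47 ± 0.13 on the log2 scale) and Id3 from 1334 ± 182 to 759.6 ± 72.2 (-0.81 ± 0.12). Both fell again by 6 months, Id1 by 1.41 ± 0.13 and Id3 by 0.77 ± 0.12 on the log2 scale, an interval over which Bmp4 itself did not pass. Smad7, the feedback inhibitor, had means of 979 and 913 at P18 and P75 and fell to 488 at 6 months (-0.90 ± 0.078). Acvr1, a type I receptor, rose at both steps, from 303 to 445 and 751. From P75 to 6 months 8 of the 26 rose and 6 fell, near the 27.1% and 25.4% of all genes, and from 6 to 24 months 4 rose, beside 10.8% of all genes, and 22 did not pass.

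Enpp6, a phosphodiesterase of choline lipids that appears as oligodendrocytes begin to differentiate, fell, rose and fell at the same steps as Gpr17. It stood at 210.3, 186 and 132 normalised counts at P18 and at 83.2, 98.3 and 100.6 at P75. At 6 months it stood at 188, 203 and 165, within the range of P18, and at 24 months at 94.1, 141 and 143. The 6-month mean was 105% of the P18 mean, while that of Gpr17 was 31.5% of it. Enpp6 fell by 0.88 ± 0.19 on the log2 scale from P18 to P75 (limma adjusted p = 0.00133) and rose by 0.97 ± 0.19 from P75 to 6 months (adjusted p = 0.000374). The difference between 24 and 6 months was -0.57 ± 0.19 (limma adjusted p = 0.0404). That call was lost with no filter on low values (adjusted p = 0.0612), without P75 replicate 2 (0.0506), without 6-month replicate 1 (0.112) or 2 (0.134), without 24-month replicate 2 (0.0593), and without 24-month replicate 1, where the difference shrank to -0.38 (adjusted p = 0.183). Over the alternatives its adjusted p ran from 0.0130 to 0.183. The difference between 24 months and P75 was 0.40 ± 0.19 (limma adjusted p = 0.0884), and it passed without P18 replicate 3 (0.40, adjusted p = 0.0410) or 24-month replicate 1 (0.59, adjusted p = 0.0155).

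The other ectonucleotide pyrophosphatase genes did not fall with Enpp6 from P18 to P75, and the 5 that were tested rose with it from P75 to 6 months. At that second step 27.1% of all genes rose, as did 17 of the 41 tested paralogues of the members. Enpp2, which encodes the lysophospholipid-producing enzyme autotaxin, rose from a mean of 7379 normalised counts at P18 to 12016 at P75 and 16169 at 6 months. Enpp4 rose from 406 to 718 and 1007, Enpp5 from 1579 to 2900.5 and 4989.9, and Enpp1 from 21.1 to 65.6 and 133. Enpp3 had means of 7.91 and 9.62 at P18 and P75 and did not pass there, and rose to 20.1 at 6 months (1.23 ± 0.46 on the log2 scale, limma adjusted p = 0.0327), while Enpp7 was under the minimum for testing.

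Neu4, a sialidase that removes sialic acid from glycans, stepped down through the ages. The P18 samples held 485, 469 and 513 normalised counts and the P75 samples 217, 222 and 242. At 6 months they held 167, 167 and 136, and at 24 months 128, 130 and 142, overlapping with 6 months. The difference between P75 and P18 was -1.10 ± 0.11 (limma adjusted p = 2.48e-06), that between 6 months and P75 -0.54 ± 0.11 (adjusted p = 0.000774). Between 24 and 6 months it was -0.23 ± 0.11 (95% interval -0.47 to 0.0049, limma adjusted p = 0.153). Neu1, the lysosomal sialidase, rose instead, from a mean of 579.6 at P18 to 879.7 at P75 and 1493 at 24 months, while Neu3 had means of 69.9 and 82.8 at P18 and P75 and passed in no comparison of neighbouring ages. Neu2 had means of 82.9 and 88.5 at P18 and P75, where it did not pass, and then fell to 64.3 at 6 months (-0.46 ± 0.17, limma adjusted p = 0.0322), a step at which Neu4 fell too.

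Rras2, a small GTPase of the RAS family, stood at 963, 1109.6 and 866 normalised counts at P18 and at 314, 274 and 366 at P75. At 6 months the samples held 194, 223 and 206, and at 24 months 221, 196 and 212. P18 lay highest, P75 next, and the last 2 ages overlapped. It fell by 1.62 ± 0.12 on the log2 scale from P18 to P75 (limma adjusted p = 1.59e-07) and by 0.60 ± 0.12 from P75 to 6 months (adjusted p = 0.000570). Between 6 and 24 months the difference was 0.013 ± 0.12 (95% interval -0.24 to 0.27). Its nearest relatives fell too between P18 and P75, with differences of -0.62 ± 0.13 for Rras and -0.54 ± 0.093 for Mras. From P75 to 6 months they parted: Rras fell from a mean of 293 to 156 and Mras rose from 1969 to 2487.

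Rassf10 belongs to a family of proteins with a RAS-association domain. It stood at 152, 168 and 149 normalised counts at P18 and at 25.1, 38.0 and 32.1 at P75. Lower still were 6 months, with 23.6, 16.0 and 17.5, and 24 months, with 8.92, 10.8 and 16.7. At 24 months the mean was 7.76% of that at P18, and no other member kept so small a part of its P18 level. The 24-month values rest on 9, 10 and 18 reads, with exact 95% Poisson intervals of 4.12 to 17.1, 4.80 to 18.4 and 10.7 to 28.4 reads, which cover counting error only. Rassf10 fell by 2.28 ± 0.24 on the log2 scale from P18 to P75 (limma adjusted p = 4.14e-06) and by 0.71 ± 0.24 from P75 to 6 months (adjusted p = 0.0228). The second fall was lost without P75 replicate 2 (-0.57, adjusted p = 0.0991), P75 replicate 3 (-0.69, 0.0559), 6-month replicate 2 (-0.60, 0.0858) or 6-month replicate 3 (-0.66, 0.0631), and adjusted p ran from 0.0131 to 0.0991 over the alternatives. Between 24 and 6 months the difference was -0.63 ± 0.24 (limma adjusted p = 0.0773), and it passed after quantile normalization (-0.90, adjusted p = 0.0227) or without 24-month replicate 3 (-0.87, adjusted p = 0.0281). Against P75, 24 months differed by -1.34 ± 0.24 (limma adjusted p = 0.000362). Rassf2, Rassf3, Rassf4 and Rassf6 rose between P18 and P75, Rassf2 from a mean of 1598 to 3253, while Rassf5 fell from 630.2 to 476.

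Fyn, the SRC-family kinase, varied little among the samples of an age. It stood at 5819, 5872 and 5729 normalised counts at P18 and at 2919, 3109 and 2692 at P75. The 6-month samples held 2657, 2847 and 2600.1, within or just under the P75 range, and those of 24 months 2281, 2296.5 and 2299, below all earlier samples. From P18 to P75 the mean dropped to 50.1% (-1.0 ± 0.077 on the log2 scale, limma adjusted p = 2.18e-07). Between P75 and 6 months the difference was -0.10 ± 0.077 (95% interval -0.27 to 0.060), and between 6 and 24 months -0.24 ± 0.077 (limma adjusted p = 0.0433). The last call was fragile: it was lost in 12 of 22 alternatives, with edgeR (0.0554), TMM normalization (0.0514), the replicate block (0.0540) and 9 of the 12 fits that left out a sample (0.0529 to 0.152), and adjusted p ran from 0.0166 to 0.152 over all 22. The fits that kept it among these 12 were those without P18 replicate 3, P75 replicate 2 or P75 replicate 3. Fyn at 24 months against P75 differed by -0.34 ± 0.077 (limma adjusted p = 0.00207) and passed in all 22.

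Of 13 tested genes that act with Fyn, from membrane partners to RhoA regulators, 3 rose, 4 fell and 6 did not pass between P18 and P75, with a median of -0.099. Among all genes 21.7% rose and 18.7% fell. The 4 that fell with Fyn, named after their values were seen, were Rhoa (-0.65 ± 0.092), Csk (-0.48 ± 0.094), Cdk5 (-0.37 ± 0.088) and Cttn (-0.34 ± 0.072). Ptpra, a phosphatase that activates SRC-family kinases, rose from a mean of 2063 to 3486, and Cntn1, the contactin that couples axonal contact to FYN, rose from 5802 to 7810.4. Itga6, the laminin receptor subunit, had means of 44.8 and 44.5 at P18 and P75 and rose to 140.2 at 6 months. Arhgap5, a RhoA inhibitor, had means of 679 and 637 and rose to 1825 at 6 months. Among the relatives of Fyn, Src (-0.43 ± 0.12) and Lyn (-0.35 ± 0.11) fell between P18 and P75, while Yes1 (-0.11 ± 0.14) and Lck did not pass.

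Itpr2, an inositol trisphosphate receptor that releases calcium from internal stores, and Tmem163, a zinc efflux transporter, changed least. Itpr2 stood at 179, 208 and 221 normalised counts at P18, 141, 150.2 and 153 at P75, 197, 173 and 139 at 6 months, and 144, 156 and 136 at 24 months. It fell by 0.45 ± 0.14 on the log2 scale from P18 to P75 (limma adjusted p = 0.0146), and after P75 the ages overlapped. Tmem163 stood at 1131, 1096 and 1315 at P18, 851, 912 and 821 at P75, 903, 911 and 871 at 6 months, and 929, 986 and 999.7 at 24 months. It also fell by 0.45 ± 0.085 (limma adjusted p = 0.000577). From 6 to 24 months its samples did not overlap, yet the difference of 0.12 ± 0.085 did not pass (95% interval -0.062 to 0.30). Tmem163 and Mgat5 share 152 of Tmem163's 4292 exonic bases on opposite strands. Itpr1 and Itpr3 went the other way from Itpr2 between P18 and P75, Itpr1 rising from a mean of 3701 to 8453 and Itpr3 from 28.6 to 56.5. Of the zinc transporters set beside Tmem163, Slc30a1, Slc30a3, Slc30a4, Slc30a5 and Slc30a6 rose over the same step, by 0.43 to 0.85 on the log2 scale, and Slc30a7, Slc30a9 and Slc30a10 did not pass.

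**Figure D2:**
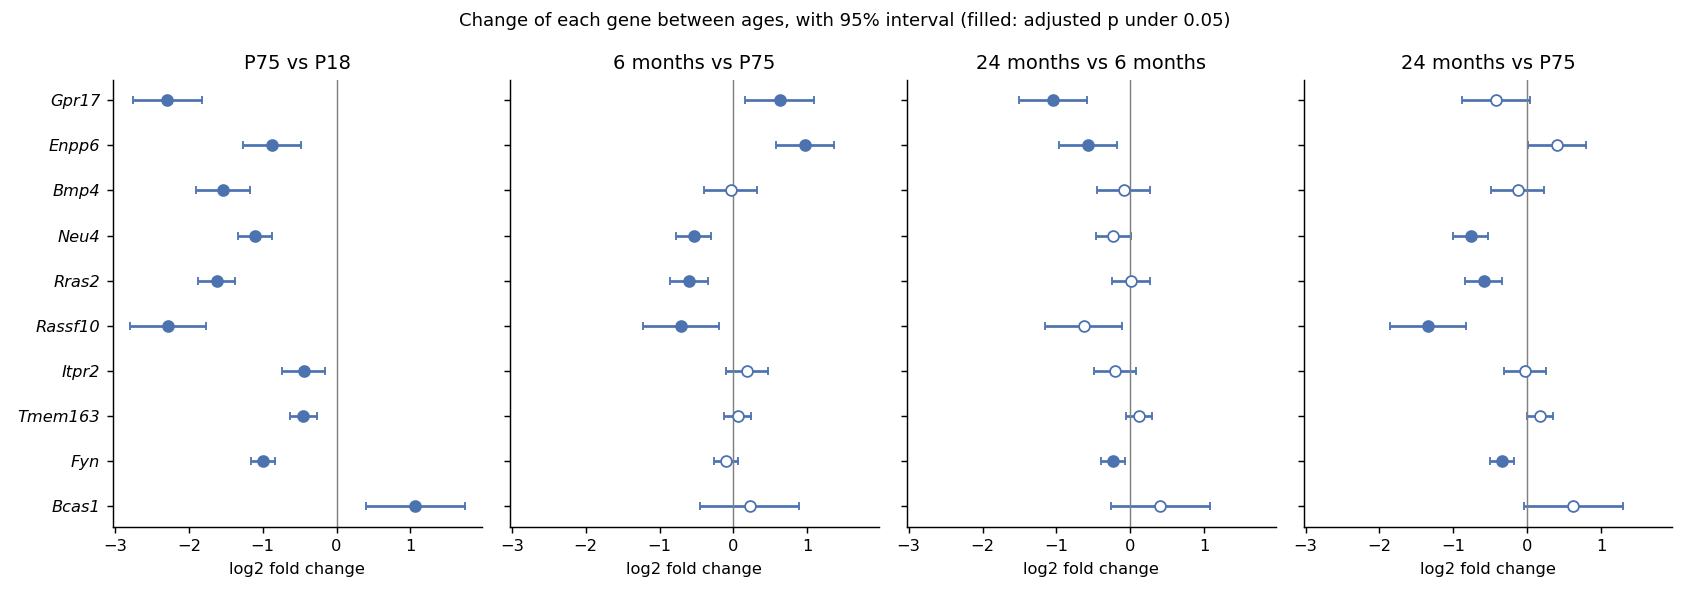
Log2 fold change of each of the 10 genes (horizontal axis) for 4 comparisons of ages, with its 95% interval; filled points passed at an adjusted p under 0.05 in limma. At P75 against P18 all points are filled and 9 lie left of 0, whereas at 24 against 6 months 3 are filled: Gpr17, Enpp6 and Fyn.

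Bcas1 ran against the other 9. It stood at 47977, 68427 and 22648 normalised counts at P18 and at 114832, 76524 and 77709 at P75. The 6-month samples held 83727, 136707 and 94413 and the 24-month samples 162687, 133778 and 115225. Samples of P18 lay below those of every later age, and P18 replicate 3 was the lowest of all 12. The difference between P75 and P18 was 1.07 ± 0.32 (limma adjusted p = 0.0135). It did not pass without P18 replicate 3, where it was 0.62 (adjusted p = 0.0519) and where 9 of the 10 genes passed, or without P75 replicate 1 (0.87, adjusted p = 0.0646), and adjusted p ran from 0.00212 to 0.0646 over the alternatives. Later differences did not pass: 0.22 ± 0.32 at 6 months against P75 (95% interval -0.45 to 0.89) and 0.40 ± 0.32 at 24 against 6 months (-0.27 to 1.08). At 24 months against P75 the samples did not overlap and the difference was 0.63 ± 0.32 (limma adjusted p = 0.118), which passed when those 2 ages were fitted alone (adjusted p = 0.0136) or without P18 replicate 3 (adjusted p = 0.0252). A pair of antisense genes are annotated over Bcas1, Bcas1os1 sharing 440 and Bcas1os2 sharing 34 of its 3775 exonic bases.

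Because Bcas1 was so abundant, it set the sum of the group. In the P18 samples the 10 genes together made up 0.227 ± 0.0751% of all counts (SD, n = 3 per age), in those of P75 0.420 ± 0.0923%, in the 6-month samples 0.481 ± 0.0938% and in the 24-month samples 0.606 ± 0.0870%. Bcas1 made up 68.7% to 86.4% of that sum in the P18 samples and 93.7% to 97.6% later. For the other 9 the shares were 0.0432 ± 0.0029%, 0.0219 ± 0.00095%, 0.0214 ± 0.0012% and 0.0179 ± 0.0012% in the same order, so the sum rose with Bcas1 and was lower after P18 without it.

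Within an age, samples high in Bcas1 were also high in Mbp, a comparison chosen after the values were seen. At P18 the order of the samples was the same for both, with Mbp at 20.8%, 15.1% and 9.47% of all counts in replicates 2, 1 and 3, and at 6 and 24 months it was the same as well. At P75 replicate 1 was highest for both and replicates 2 and 3 changed places. Per 1000 Mbp counts the P18 samples had 12 ± 1.2 Bcas1 counts and the P75 samples 70.8 ± 2.72 (SD, n = 3 per age), and the ratio was 73.8 ± 6.54 in the 6-month and 92.1 ± 2.47 in the 24-month samples. More of the step from P18 to P75 came from Mbp, whose mean was 3800543 normalised counts at P18 and 1265436 at P75, than from Bcas1, whose mean was 1.93-fold higher at P75. The ratio varied by less within an age than Bcas1 itself, which differed 3.02-fold between the highest and the lowest P18 sample, against 1.02-fold for Fyn. What moves Bcas1 and Mbp together within an age was not tested.

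**Figure D3:**
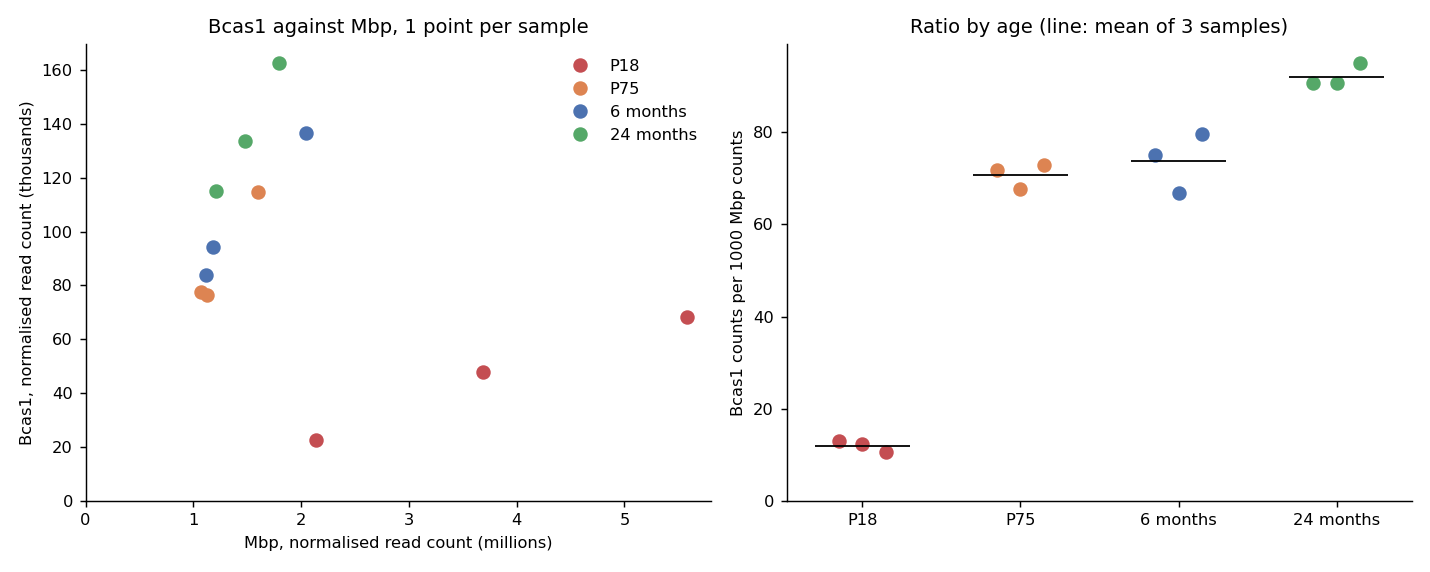
Left, Bcas1 (vertical axis) against Mbp (horizontal axis), both as normalised counts on linear scales from 0, with a point per sample coloured by age; right, Bcas1 counts per 1000 Mbp counts by age, with a line at the mean of 3. The P18 samples lie apart, at 10.6 to 13 Bcas1 counts per 1000 Mbp counts against 66.7 to 94.9 in the later samples.

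The levels of the 10 genes were compared per transcript length. On the scale of normalised counts per kilobase of the longest transcript, the P18 levels were 15701 for Bcas1, 1630.2 for Fyn, 338 for Tmem163, 277 for Rras2, 272 for Gpr17, 108 for Neu4, 92.5 for Bmp4, 44.7 for Rassf10, 35.4 for Enpp6 and 17.4 for Itpr2. Rras2 and Gpr17 overlapped in that order, as did Neu4 and Bmp4. Rassf10 (42.5 to 48.2) and Enpp6 (26.5 to 42.3) were next to each other without overlap. At 24 months Bcas1 (46487), Fyn (644) and Tmem163 (279) kept the first places, and Rassf10 (3.47) had dropped to the last. Rras2 (59.3) and Gpr17 (43.5) overlapped there, and so did Neu4 (29.5), Bmp4 (28.3) and Enpp6 (25.4). At 6 months Gpr17 (85.8, 72.7 to 104) stood above Rras2 (58.8, 54.9 to 63.0), the reverse of their order at P75.

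By how much of the P18 mean was left at 24 months, the falling genes differed widely. Rassf10 kept 7.76%, Gpr17 16.0%, Rras2 21.4%, Neu4 27.2% and Bmp4 30.7%. Fyn kept 39.5%, Enpp6 and Itpr2 71.6% each and Tmem163 82.3%. For each of these 9 genes most of the loss at 24 months was already present at P75, when between 20.2% (Gpr17) and 73.0% (Itpr2 and Tmem163) of the P18 mean was left, and Enpp6 (53.4%) and Tmem163 had lower means at P75 than at 24 months.

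From P75 to 6 months 2 of the 10 genes rose (Gpr17, Enpp6), 3 fell (Neu4, Rras2, Rassf10) and 5 did not pass, a share near the background, since 52.4% of all genes changed, 27.1% upward and 25.4% downward. The same 5 had samples that did not overlap, beside 62.3% of all genes (31.7% higher, 30.6% lower). Leaving out P75 replicate 2 or P75 replicate 3 left 3 genes that passed. From 6 to 24 months 0 rose and 3 fell, where 10.8% of all genes rose and 8.34% fell and 19.2% changed. The samples lay apart for 4 of the 10, Tmem163 upward and these 3 downward, beside 43.2% of all genes (23.2% higher, 19.9% lower). Without 6-month replicate 1 or 2, or 24-month replicate 1 or 2, 1 of the 3 remained among those called, Gpr17. In the comparison of 24 months with P75, 0 of the 10 rose and 4 fell (Neu4, Rras2, Rassf10 and Fyn), where 45.6% of all genes changed, 25.0% upward and 20.7% downward. The samples of these 4 lay apart, as did those of Tmem163 and Bcas1 upward, beside 56.9% of all genes (29.2% higher, 27.7% lower). No member rose in either comparison with 24 months by limma, edgeR or DESeq2 (0 each), and at an unadjusted p under 0.05 in limma 0 rose against 6 months and 1, Enpp6, against P75. The medians of the 10 differences were 0.0096, -0.22 and -0.23 in these 3 comparisons, beside 0.0029, 0.030 and -0.0027 over all genes.

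Other genes of the premyelinating stage, on a list also drawn up with earlier results of these data known, fell with the 9 between P18 and P75. Of 22 tested, 1 rose, 14 fell and 7 did not pass, with a median of -0.51, beside 18.7% of all genes that fell. The steepest was 9630013A20Rik, a long non-coding RNA, with means of 1362, 135, 37.2 and 10.9 normalised counts at the successive ages and a difference of -3.38 ± 0.22 at the first step. Kif19a, a kinesin, had means of 308, 81.4, 44.8 and 32.2. Cnksr3, a scaffold protein of RAS signalling, went from 674 to 308, 232 and 239, and Lims2 went from 796 to 159 over the 4 ages. The exception was Samd4, an RNA-binding repressor of translation and here chosen after its values were seen, which rose by 1.27 ± 0.22 from 1145 to 2745. From P75 to 6 months 7 rose and 7 fell (27.1% and 25.4% of all genes), and from 6 to 24 months 1 rose and 3 fell (10.8% and 8.34%). Casr was under the minimum for testing, Myrf was not analysed here, and Tmem2 was read under that symbol, not as Cemip2.

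**Figure D4:**
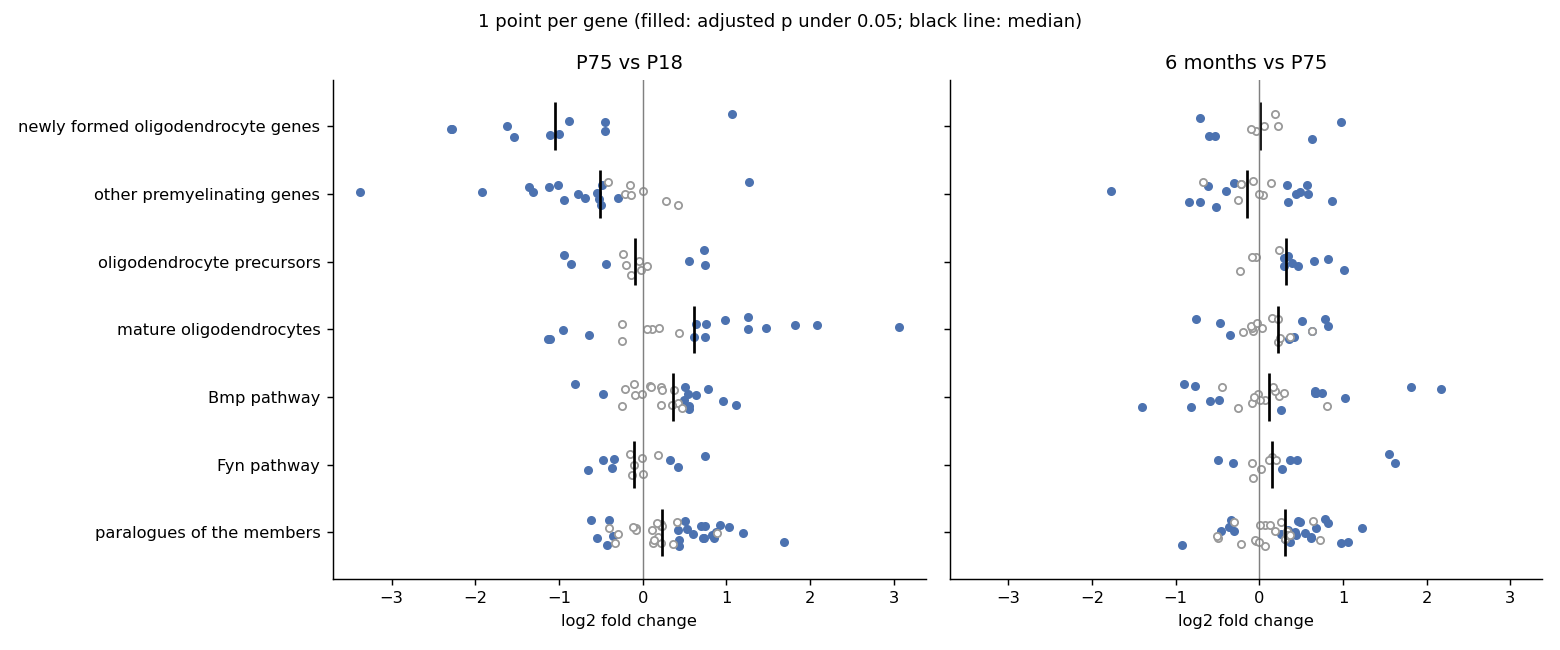
Log2 fold change (horizontal axis) of each tested gene in 7 lists for P75 against P18 and 6 months against P75; filled points passed at an adjusted p under 0.05 in limma and black lines are medians. In the left panel the medians of the newly formed oligodendrocyte genes (-1.05) and of other premyelinating genes (-0.51) lie left of 0, while that of mature oligodendrocyte genes (0.61) lies right of it.

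Markers of the neighbouring stages and of other cells changed over the same ages. Of 12 precursor markers 3 rose, 3 fell and 6 did not pass between P18 and P75, with 8 of the 12 below 0 and a median of -0.089. Their summed share, in which abundant genes weigh most, went from 0.0496 to 0.0513% of all counts at P18 to 0.0773 to 0.0800% at P75. Of the 4 with the lowest p at any age, Cspg5, Gpr37l1 and Ptprz1 rose at that step, by 0.74 ± 0.076, 0.74 ± 0.11 and 0.56 ± 0.13 on the log2 scale. They were the only 3 of the 12 that rose there. The fourth, Sox6, a precursor transcription factor, had means of 191, 105, 213 and 127 normalised counts at the successive ages, with a fall, a rise and a fall that passed. Of 21 mature oligodendrocyte markers 11 rose and 4 fell at that step, at 0.802 to 1.39% of all counts at P18 and 1.03 to 1.28% at P75. Microglial markers rose in 9 of 13 (0.0342 to 0.0377% of counts at P18, 0.0550 to 0.0613% at P75), and neuronal markers rose in 1 and fell in 5 of 13 (0.760 to 1.12% and then 1.02 to 1.17%), where 21.7% of all genes rose and 18.7% fell. Where Gpr17 and Enpp6 rose, from P75 to 6 months, 8 of the 12 precursor markers rose and 4 did not pass, and 8 of the 13 neuronal markers rose and 3 fell, beside 27.1% of all genes that rose and 25.4% that fell. Where Gpr17, Enpp6 and Fyn fell, from 6 to 24 months, 8 of the 13 microglial markers rose and 5 did not pass, beside 10.8% of all genes that rose, with a summed share going from 0.0628 to 0.0731% to 0.0922 to 0.121%. The part of these other cells in the results was not tested.

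Among all 14987 genes, those whose course over the 12 samples was most like that of Gpr17 were Cnp, Parvb, Kank1, Ick and Bfsp2, with root mean square differences of 0.37 to 0.45 on the log2 scale after each gene was centred on its mean. Cnp, which encodes a phosphodiesterase of non-compact myelin, stood at 38563, 43229 and 27650.0 normalised counts at P18 and at 10448, 11629 and 10880.1 at P75. At 6 months it held 14197, 14989 and 11111 and at 24 months 8291, 7569.6 and 8444. Bfsp2, a filament protein known from the lens, stood at 172, 218 and 380 in 24-month replicates 1, 2 and 3, the same order as Gpr17 in those samples. The genes nearest to Bcas1 were Plekhb1, Svip, Kif1c, AA388235 and Fam129b, at 0.15 to 0.22. Plekhb1, a membrane-binding protein, stood at 59903, 79638 and 26151 at P18, with replicate 3 lowest as for Bcas1, and at 201057, 174419 and 144303 at 24 months. These genes were picked for their likeness over all 12 samples, so the likeness is a description.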

How the data were processed

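RNA sequencing of 12 samples at 4 ages was analysed from 1 table of the authors. It holds a normalised count signal per gene and sample, which the authors made by dividing gene read counts by 1 size factor per sample and rounding to 2 decimals. TopHat, HTSeq, DESeq and the build mm9 are named in the submitters' processing notes, while versions, annotation and strand setting are not given in the sources used here. A check of the unit found that in every column 100% of the deposited signal values were a whole number of reads times the worth of 1 read (tolerance 0.0061), which gave back the reads. In 3 columns that worth was within 1% of 1. Depth was 20299052 to 27214385 reads per sample. No 2 samples of an age agreed within counting noise (chi-square per degree of freedom at least 9.71).

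The 10 genes and every other list were chosen with earlier results of these data known. Genes with a value of at least 10 in at least 3 samples were tested as log2(value + 1), so fold changes of low genes are understated, with limma 3.58.1 in R 4.3.3 and a mean-variance trend over all 12 samples. Tests were two-sided, adjusted by the Benjamini-Hochberg method over 14987 genes, with a threshold of 0.05. The test was checked on simulated data with 50 changed genes at each fold, where far fewer genes changed than in these data. For P75 against P18 it recovered 32% of 1.5-fold and 96% of 2-fold changes. A modest difference that did not pass may therefore be a missed change. Alternatives were edgeR 4.0.16 and DESeq2 1.42.0 on recovered reads, other normalizations, pseudocounts and filters, a replicate block, fits to the 2 ages alone and each sample left out in turn; leaving samples out of the summed share was added after the data were seen. The genes named are the 10, the 4 of each other list with the lowest adjusted p in the F test, the tested paralogues set beside a member (1 is not reported here), and the 5 genes most like Gpr17 and Bcas1. Lengths and overlaps are from GENCODE M21 (GRCm38) and start regions from RefSeq (GRCm38.p6). No sequencing batch is given.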

Additional observations from a re-analysis of the deposited data

How the results depend on the processing

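Of 40 member differences, each under 22 alternatives, 28 kept direction and call throughout, 9 changed their call and 3 changed sign without passing. The sign changes were Bmp4 at 6 months against P75 without P75 replicate 3 (0.0023), Rras2 at 24 against 6 months after quantile normalization (-0.047), without 6-month replicate 1 (-0.035) or without 24-month replicate 1 (-0.026), and Itpr2 at 24 months against P75 without 24-month replicate 3 (0.016); the cause was not tested. Over the left-out samples these 3 ran from -0.11 to 0.0023, from -0.035 to 0.064 and from -0.081 to 0.016. Leaving out a sample gave 3 to 5 changed members at 6 months against P75 and 1 to 3 at 24 against 6 months, where the count over all genes ran from 1244 to 3963, beside 2876 with all samples; such fits have fewer samples. The members' summed share without Bcas1 was 0.0432%, 0.0219%, 0.0214% and 0.0179% at the 4 ages.

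Most same-numbered samples of different ages did not deviate together (correlation above 0.1 in 3 of 18 pairs, -0.185 to 0.165). Between P75 and 6 months, however, the same-numbered pairs had correlations of 0.147, 0.093 and 0.165. The differently numbered pairs of these ages had -0.132 to -0.028. Deviations were taken from the mean of each age, so positive correlations in some pairs force negative ones in others. With 3 samples per age, such correlations cannot tell whether the numbers pair the samples. With the replicate block 10, 5, 2 and 4 members changed in the 4 comparisons and 5871, 7656, 2583 and 6661 of all genes. Low read numbers limit Rassf10 after P18 and Bmp4 after P18. Over all the alternatives, the median of all genes moved by at most 0.070 on the log2 scale.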
